A study of Arabidopsis thaliana with 30 samples.

Results

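In Arabidopsis thaliana, 2 double mutants of subunits of histone acetyltransferase complexes were compared with each other: ada2aspc (genotype ada2a-/-spc-/-) and spcing1 (genotype spc-/-ing1-/-). Both carry the spc mutation, so they differ in whether ADA2A or ING1 is the second gene mutated. The comparison takes 6 of the 30 libraries of the series, 3 of each double mutant, and the 21868 of 32548 genes that were kept for testing (10 or more in 3 or more of the 30 libraries). All libraries came from whole seedlings 12 days old, raised on plates of Murashige and Skoog medium without treatment. The single mutants ada2a (ada2a-/-), ing1 (ing1-/-) and spc (spc-/-) and the wild type Col-0, also 3 libraries each, are used here to place the double mutants, and ada2a against ing1 gives the same pair of mutations without spc. The mutants ada2b (ada2b-/-), gcn5 (gcn5-/-), eaf6 (eaf6-/-) and sdrl (sdrl-/-), 3 libraries each, make up the rest of the 30 and enter the fit and the comparisons with all other libraries. The alleles, and whether a genotype was a single line or its libraries came from separate growths, are not given in the labels, so the spread behind each p-value is that of libraries of a genotype and may be only technical. In whole seedlings, fewer cells of a type and less RNA per cell cannot be told apart.

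GCN5 is a histone acetyltransferase that works inside large complexes, in which an ADA2 adaptor protein binds the enzyme and strengthens its activity on nucleosomes. Arabidopsis has a pair of such adaptors, ADA2A and ADA2B. ING1 belongs to the inhibitor of growth family, whose PHD finger binds histone H3 methylated at lysine 4, a mark of active genes. The series compares mutants of such subunits.

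Values are the deposited normalised signal per gene. Column totals were 39708715 to 40253838 in ada2aspc and 39755491 to 41548748 in spcing1. Pearson's r across genes was 0.982 to 0.983 within ada2aspc, 0.982 within spcing1, and 0.978 to 0.982 between them, so some libraries of the different double mutants were about as close as replicates. Errors of means are SD with n = 3. Log2 differences are ada2aspc minus spcing1 on the log2(value + 1) scale, with SE, and p-values come from limma over all 30 libraries with Benjamini-Hochberg adjustment over all 21868 genes. A gene passed at an adjusted p below 0.05. Each of the 6 libraries was also left out in turn, and the number of these 6 refits in which a gene still passed is given with it.

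The transcripts of the mutated genes followed the labels. ADA2A (AT3G07740, TAIR10.1 chr3:2469783-2473095, minus strand), the adaptor itself, stood at 5.84, 3.93 and 9.56 in ada2aspc, against 584, 599 and 578 in spcing1. The groups lay far apart (log2 difference -6.37 ± 0.21, adjusted p = 3.26e-19), and the level in ada2aspc was near that in ada2a (14.7 ± 5.90). ING1 (AT3G24010, chr3:8675905-8678286, minus strand) stood at 633, 687 and 745 in ada2aspc, against 159, 104 and 174 in spcing1, so spcing1 kept part of its signal over the whole gene (log2 difference 2.26 ± 0.14, adjusted p = 1.64e-12). The locus of SPC was not identified here, and the spc label was not checked in this way. AT3G07750, a gene of the exoribonuclease family that begins next to the start of ADA2A on the other strand (chr3:2473194-2475575), was lower too, at 213, 177 and 219 in ada2aspc, against 410.0, 349 and 406 in spcing1 (log2 difference -0.93 ± 0.16, adjusted p = 0.00188, passed in 6 of 6 refits). It was also lower in ada2a than in ing1 (log2 difference -1.13 ± 0.16, adjusted p = 8.99e-05). The cause was not tested.

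Few genes passed between the double mutants, which is not the number that differ. Before adjustment, the limma p was below 0.05 for 2782 genes. Of 21868 genes, 196 passed (0.896% of the genes tested), 47 higher in ada2aspc (0.215%) and 149 lower (0.681%). At least 2-fold differences were found for 14 higher genes (0.064%) and 38 lower genes (0.174%). Among passing genes the median log2 difference was 0.65 for the higher ones and -0.62 for the lower ones. Over all genes it was 0.01, and for 17852 genes (81.6%) the 95% interval of the log2 difference lay within 1 of 0. The number that passed depended on single libraries: it was 68, 320 and 61 without ada2aspc replicates 1, 2 and 3, and 289, 65 and 109 without spcing1 replicates 1, 2 and 3. With only the 6 libraries of the comparison in the fit, 34 genes passed. Of the genes named here, ADA2A, ING1, AT3G07750, ERF104, STZ, DIC2, IAA29, LOG1, MKK9, MYB77, AT5G11330, AT1G33760, AT1G67105, AT2G01422, AT2G40955, AT3G44006, AT4G29200, ATSLY1, AT2G17970, AT2G17990, EMB2296, MSRA5 and PIN1AT passed in that fit, and the other named calls did not.

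The list with the most passing members held genes that plants switch on within minutes of touch, wounding or other stress. In the touch and early stress list 7 of 23 tested members were lower in ada2aspc and 0 were higher, where 0.681% of all genes tested were lower. All 3 ada2aspc libraries lay below all 3 spcing1 libraries for 11 of the 23, against 8.41% of all genes tested, and 0 lay wholly above, against 8.23% of all genes tested. The list median was -0.55, against 0.01 over all genes tested. The mean log2(value + 1) level of the 23 genes was 8.74, 9.21 and 8.72 in ada2aspc, against 9.16, 9.48 and 9.60 in spcing1. Replicate 2 of ada2aspc thus stood above spcing1 replicate 1, and the ranges of the groups overlap. Without it, 10 members were lower, and 3 to 9 without any other library. The list was drawn up with earlier results of these data known.

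The 4 members with the smallest adjusted p were DREB26 and ERF104, transcription factors of the AP2/ERF family, TCH4, a cell wall enzyme named for its response to touch, and STZ (also called ZAT10), a stress-induced zinc finger protein. The promoters of ERF104, TCH4 and STZ, the 250 bases before the annotated start in RefSeq's TAIR10.1, are shown as examples from this group. Capitals mark the motifs found among CCGAC (core of the C-repeat), CACGTG (G-box), AAAATATCT (evening element), GAANNTTC (heat shock element core), TGTCTC (auxin response element), TTGACC and TTGACT (W-box) and, added after seeing the data, CGCGTT, each searched on both strands. ERF104 held GAANNTTC, STZ held CCGAC, and TCH4 held TTGACT on the other strand.
ERF104, chr5:24767733-24767982, minus strand: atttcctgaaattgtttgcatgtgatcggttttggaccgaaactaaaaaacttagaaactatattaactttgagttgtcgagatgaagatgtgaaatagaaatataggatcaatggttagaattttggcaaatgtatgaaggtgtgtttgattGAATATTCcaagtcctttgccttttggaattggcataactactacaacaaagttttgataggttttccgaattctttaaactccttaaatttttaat
TCH4, chr5:23308681-23308930, minus strand: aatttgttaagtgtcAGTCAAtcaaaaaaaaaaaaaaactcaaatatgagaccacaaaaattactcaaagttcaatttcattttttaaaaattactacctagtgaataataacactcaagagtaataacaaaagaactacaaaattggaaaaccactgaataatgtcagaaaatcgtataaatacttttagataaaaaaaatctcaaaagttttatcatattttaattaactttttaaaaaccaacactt
STZ, chr1:9649324-9649573, minus strand: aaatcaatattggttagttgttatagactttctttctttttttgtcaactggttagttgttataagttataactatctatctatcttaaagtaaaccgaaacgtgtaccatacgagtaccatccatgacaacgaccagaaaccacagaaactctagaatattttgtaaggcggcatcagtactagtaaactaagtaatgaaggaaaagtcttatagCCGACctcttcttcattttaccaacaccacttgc
In windows of 250 bases before to 50 after the start, TTGACC was found in 30.4% of the touch list's promoters and 14.3% of the 21867 promoters of tested genes, TTGACT in 30.4% and 21.9%, and GAANNTTC in 26.1% and 11.4%. The other motifs were found in at most 13.0% of the list's promoters. CCGAC was found in 13.0% of them and 15.8% of all, CACGTG in 13.0% and 8.54%, and TGTCTC in 13.0% and 13.8%. AAAATATCT was found in 4.35% and 2.97%, and CGCGTT in 4.35% and 3.71%. GAANNTTC was found in 13.4% of promoters of the 149 lower genes and 21.3% of those of the 47 higher genes. The evening element was found in 6.71% of promoters of the 149 lower genes and 2.97% of all. These shares are descriptions and show no binding.

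DREB26 stood at 1552, 2985 and 1193 in ada2aspc, against 3406, 4357 and 4576 in spcing1. Replicate 2 of ada2aspc was the nearest to spcing1, but the groups did not overlap (log2 difference -1.21 ± 0.20, adjusted p = 0.00103, passed in 6 of 6 refits). DREB26 was at 2687 ± 232 in ada2a, 2153 ± 175 in ing1, 3412 ± 402 in spc and 113 ± 14.6 in Col-0, so ada2aspc kept a level well above the wild type. ERF104 stood at 1129.7, 1627 and 1261 in ada2aspc, against 2403, 3354 and 3646 in spcing1. Every ada2aspc library was below every spcing1 library (log2 difference -1.22 ± 0.21, adjusted p = 0.00188, passed in 6 of 6 refits). TCH4, which loosens and rejoins xyloglucan in the wall, stood at 14470.2, 28402 and 10119 in ada2aspc, against 35051, 48856 and 48506 in spcing1. The groups again did not overlap (log2 difference -1.44 ± 0.26, adjusted p = 0.0028), and the call was lost without ada2aspc replicate 3, where the adjusted p was 0.0597. STZ stood at 305, 533 and 347 in ada2aspc, against 820.4, 985 and 1102 in spcing1, with no overlap (log2 difference -1.32 ± 0.24, adjusted p = 0.00286, passed in 6 of 6 refits).

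SZF1, a salt-inducible zinc finger protein that binds RNA, stood at 2053, 3457 and 2007 in ada2aspc, against 4666, 5269 and 4938 in spcing1 (log2 difference -1.03 ± 0.21, adjusted p = 0.0126). CML38, a calmodulin-like calcium sensor, stood at 623, 842 and 518 in ada2aspc, against 959, 1145 and 1196 in spcing1 (log2 difference -0.76 ± 0.17, adjusted p = 0.018). EXO, an EXORDIUM protein of cell expansion, stood at 15987, 24238 and 11288 in ada2aspc, against 22153, 27914 and 30197 in spcing1, where ada2aspc replicate 2 lay inside the range of spcing1 (log2 difference -0.70 ± 0.17, adjusted p = 0.0394). These 3 calls were less firm: they passed in 3, 2 and 2 of 6 refits, with adjusted p up to 0.117, 0.17 and 0.282. Among members that did not pass, the calmodulin-like gene TCH2 was at 1509, 2061 and 1133 in ada2aspc, against 2191, 2752 and 2966 in spcing1 (log2 difference -0.78 ± 0.21, adjusted p = 0.0748), and the low-level CML39 had a log2 difference of 1.14 ± 1.09 (adjusted p = 0.707). The summed level of the 20 shoot tissue markers ran lower too, at 162655 to 183246 in ada2aspc, against 183267 to 220388 in spcing1, so the ranges nearly met. Of those markers 17 were tested and 0 passed, where 0.896% of all genes tested did. Their median log2 difference was -0.12. All ada2aspc libraries lay below all spcing1 libraries for 1 of the 17, and above them for 1. WUS, CLV3 and CRC were listed at 0. The part of tissue proportions in the result was not tested. The sums over 16 root markers overlapped, at 66136 to 84576 in ada2aspc and 69972 to 79552 in spcing1.

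**Figure D1:**
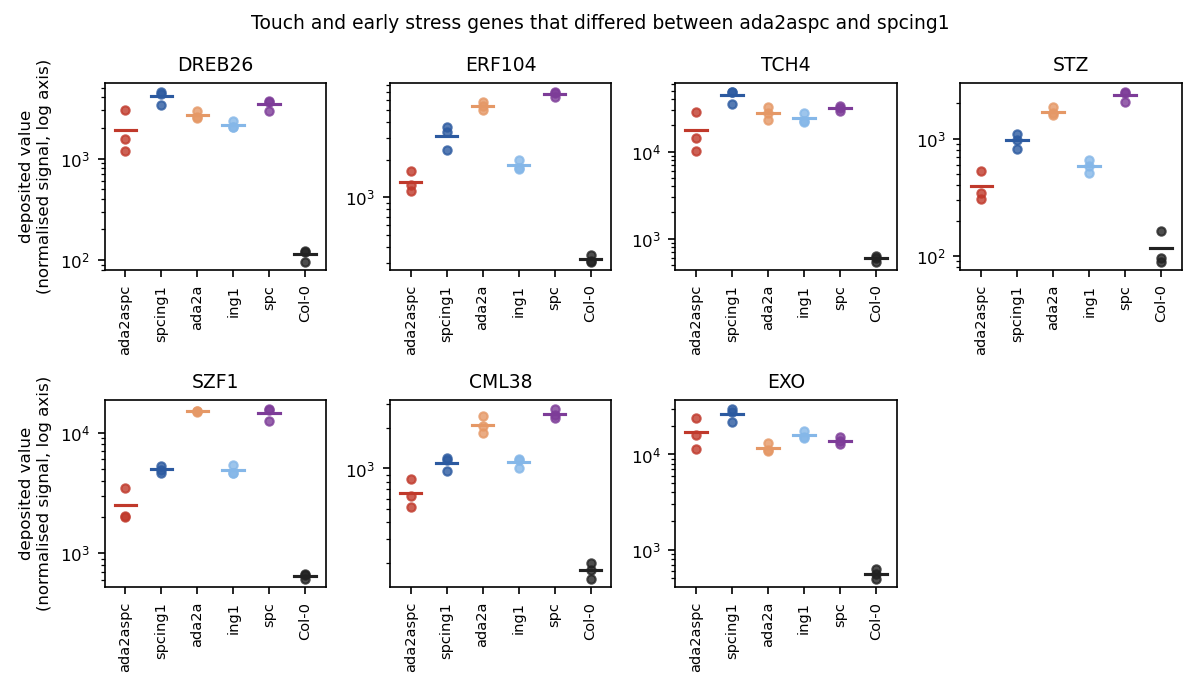
Deposited values (normalised signal, log axis) of the 7 touch and early stress genes that passed, in ada2aspc, spcing1, ada2a, ing1, spc and Col-0. Each point is a library and each bar a mean of 3; ada2aspc lies below spcing1 in every panel other than EXO, where replicate 2 falls inside the spcing1 range, and both lie above Col-0.

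The following genes are among those with the largest passing differences and were lower in ada2aspc. NEET, an iron-sulfur protein, stood at 76.0, 172 and 50.3 in ada2aspc, against 394, 489 and 189 in spcing1 (log2 difference -1.92 ± 0.37, adjusted p = 0.00533). PHI-1, a member of the EXORDIUM family, stood at 999.8, 2488 and 691 in ada2aspc, against 3184, 5455 and 4918 in spcing1 (log2 difference -1.88 ± 0.31, adjusted p = 0.00138). Replicate 2 of ada2aspc was the highest of its group for both, and the groups did not overlap. BAP1, a membrane-associated inhibitor of cell death, stood at 35, 81.0 and 59.5 in ada2aspc, against 121, 181 and 218 in spcing1 (log2 difference -1.59 ± 0.27, adjusted p = 0.00186). SLAH3, an anion channel, stood at 1710.1, 3850.2 and 1224 in ada2aspc, against 4669, 4836 and 5423 in spcing1 (log2 difference -1.31 ± 0.19, adjusted p = 0.000376). DIC2, a dicarboxylate carrier of mitochondria, stood at 423, 846 and 423 in ada2aspc, against 1187, 1597 and 1594 in spcing1 (log2 difference -1.44 ± 0.30, adjusted p = 0.0115). It was the only one of 15 tested genes of alternative respiration and mitochondrial stress that passed, where 0.896% of all genes tested did. For all 3 of these genes each ada2aspc library was below each spcing1 library. PHI-1, BAP1 and SLAH3 passed in all 6 refits, but with only the compared groups in the fit their adjusted p was 0.0995, 0.11 and 0.152. NEET passed in 3 refits and DIC2 in 2, with adjusted p up to 0.0925 and 0.103. WRKY70, a transcription factor of salicylic acid defence, stood at 2866, 3898 and 1931 in ada2aspc, against 5738, 5069.8 and 6168 in spcing1 (log2 difference -1.02 ± 0.19, adjusted p = 0.00424), and without ada2aspc replicate 3 its adjusted p was 0.0819. It was the 1 lower gene among 26 of the salicylic acid and immunity list, of which 0 were higher. NPR3, a salicylic acid receptor outside that list, was lower too (adjusted p = 0.0072, passed in 4 of 6 refits). Of all genes tested, 0.681% were lower and 0.215% higher. FRK1, a kinase induced by microbial patterns, had a log2 difference of 1.95 ± 0.57 (adjusted p = 0.101), and WRKY62 of 1.58 ± 0.93 (adjusted p = 0.489), both at low values.

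The same pair of mutations without spc gave a different picture. Between ada2a and ing1, which share no library with the double mutants, 355 genes passed (1.62% of the genes tested), 190 higher in ada2a (0.869%) and 165 lower (0.755%). In the touch and early stress list 14 of 23 members were higher in ada2a and 0 were lower, with a median log2 difference of 1.18. The difference of the 2 differences, ada2aspc minus spcing1 less ada2a minus ing1, passed for 425 genes (1.94%), 132 positive (0.604%) and 293 negative (1.34%). It was negative for 14 of the 23 touch list members, and for 12 to 14 of them with any library of the 4 genotypes left out. The mean log2 level of the list was 8.89 ± 0.28 in ada2aspc, 9.41 ± 0.22 in spcing1, 10.31 ± 0.18 in ada2a, 9.36 ± 0.13 in ing1, 10.39 ± 0.10 in spc and 6.76 ± 0.21 in Col-0. Among these 6 genotypes the list thus stood highest in spc and ada2a, which differed by less than their spread, and lowest in Col-0. The levels in spcing1 and ing1 were also within their spread of each other.

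ERF104 shows the pattern: it was 1339 ± 258 in ada2aspc and 3134 ± 649.7 in spcing1, and 5396 ± 406 in ada2a and 1804 ± 166 in ing1. Its log2 difference was -1.22 ± 0.21 between the double mutants and 1.58 ± 0.21 between the single mutants, and the difference of these was -2.80 ± 0.30 (adjusted p = 3.03e-06). SZF1 was 2506 ± 825 in ada2aspc and 4958 ± 302 in spcing1, and 15029 ± 22.4 in ada2a and 4885 ± 422 in ing1 (difference of the differences -2.65 ± 0.30, adjusted p = 5.35e-06). WRKY40, a repressor of defence genes, had a log2 difference of -0.48 ± 0.25 between the double mutants (adjusted p = 0.431) and 2.0 ± 0.25 between the single mutants (adjusted p = 2.45e-05). TCH4 and DREB26 differed in another way: their single-mutant differences were 0.19 and 0.32, which did not pass, and both differences of the differences did (-1.63 and -1.53).

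In all, 48 genes passed in both comparisons, which is 24.5% of the double-mutant calls and 13.5% of the single-mutant calls. Of these, 25 had opposite signs, and all 25 were lower in ada2aspc and higher in ada2a. The difference of the differences passed for each of the 25, which choosing genes that passed both tests with opposite signs made nearly certain. They include ACS6, an ethylene synthesis enzyme (-0.87 between double and 1.94 between single mutants), MKK9, a MAP kinase kinase (-0.68 and 0.77), MYB77, a transcription factor of auxin response (-1.17 and 1.15), the heat shock factor HSFA8 (-0.46 and 0.75) and NPR3, a salicylic acid receptor (-0.45 and 0.36). Between the double mutants these 5 genes passed in 2, 2, 3, 2 and 4 of 6 refits, with adjusted p up to 0.179, 0.167, 0.0888, 0.176 and 0.0958. AT4G27280, a calcium-binding EF-hand gene, stood at 1075, 2145 and 889.6 in ada2aspc, against 3007, 4097 and 3912 in spcing1 (log2 difference -1.52 ± 0.26, adjusted p = 0.00171, passed in 6 of 6 refits), and at 7683 ± 421 in ada2a and 2429 ± 229 in ing1. The count of 25 was 31 without ada2aspc replicate 2, 10 without ada2aspc replicate 1, 6 without ada2aspc replicate 3, 8 without spcing1 replicate 2 and 14 without spcing1 replicate 3, and 10 with only the groups compared in each fit. Across all 21868 genes the log2 differences of both comparisons had a Pearson's r of -0.0709, a description over genes, which are not independent.

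**Figure D2:**
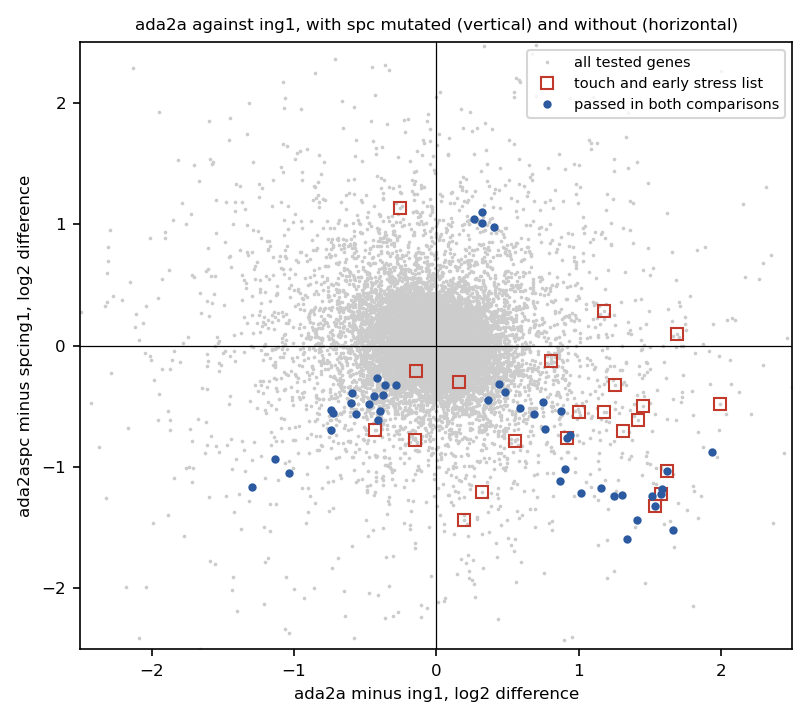
Log2 difference of ada2aspc minus spcing1 (vertical) against that of ada2a minus ing1 (horizontal) for all tested genes, with the touch and early stress list (squares) and the 46 genes that passed in both comparisons other than ADA2A and ING1 (filled). Of the axes' range, up to 2.5 either way, 61 genes fall outside; filled points lie in the lower right, the lower left and, for 4 genes of a chromosome 2 run, the upper right.

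The other 23 genes moved the same way in both comparisons, 18 lower, ADA2A among them, and 5 higher, which were ING1 and 4 genes of a run on chromosome 2. AT5G11330, an FAD-binding oxidoreductase gene (chr5:3617138-3618913, minus strand), stood at 667, 652 and 639 in ada2aspc, against 1254, 1791 and 1387 in spcing1. The groups lay well apart (log2 difference -1.16 ± 0.11, adjusted p = 5.42e-08, passed in 6 of 6 refits), and its single-mutant difference was -1.30 ± 0.11 (adjusted p = 9.28e-09). It was 932 ± 179.9 in spc, 918 ± 44.2 in ada2a, 2257 ± 161 in ing1 and 2543 ± 176 in Col-0. AT1G50040, annotated as a putative formin-like protein, had log2 differences of -1.05 ± 0.22 and -1.04 ± 0.22. GALS1, a galactan synthase of pectin, had -0.69 ± 0.13 and -0.74 ± 0.13, and SKU5, a wall glycoprotein of directional root growth, -0.26 ± 0.06 and -0.41 ± 0.06. PMR6, a pectate lyase-like gene, had -0.32 ± 0.08 and -0.36 ± 0.08. DIN10, a raffinose synthase family gene induced by darkness, stood at 40007, 54563 and 49970.5 in ada2aspc, against 60067, 77067 and 70397 in spcing1, without overlap (log2 difference -0.53 ± 0.13, adjusted p = 0.0424), and its single-mutant difference was -0.74 ± 0.13. It was the only one of 20 dark and senescence genes that passed, where 0.896% of all genes tested did. Of the smaller differences, AT1G50040, SKU5, PMR6 and DIN10 each passed in 2 of 6 refits, with adjusted p up to 0.122, 0.243, 0.288 and 0.272. GALS1 failed without ada2aspc replicate 3 (adjusted p = 0.0597).

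The cell wall genes of the next lists that passed were all lower in ada2aspc. In the family of xyloglucan endotransglucosylases, which remodel the wall during growth, 4 of 24 tested genes were lower in ada2aspc (0.681% of all genes tested were) and 0 were higher, with a median of -0.11. Beside TCH4 these were XTH23, at 587, 1159 and 457 in ada2aspc, against 1211, 1489 and 1682 in spcing1 (log2 difference -1.09 ± 0.19, adjusted p = 0.0019), XTH16, at 1756, 2174 and 1390.4 in ada2aspc, against 2369, 3036 and 3203 in spcing1 (log2 difference -0.71 ± 0.13, adjusted p = 0.00387), and XTH9, at 11017, 15285 and 11853 in ada2aspc, against 16201, 17643 and 18493 in spcing1 (log2 difference -0.47 ± 0.10, adjusted p = 0.0121). None of these had overlapping groups, and ada2aspc replicate 2 was the highest of its group in each. XTH23 passed in 6 of 6 refits, XTH16 in 5 (adjusted p = 0.0796 without ada2aspc replicate 3) and XTH9 in 2 (adjusted p up to 0.141). Between ada2a and ing1, 4 of the 24 were also lower in ada2a and 0 were higher, with a median of -0.30. TCH4 was not among them. XTH15 was (log2 difference -1.20 ± 0.16, adjusted p = 3.97e-05), but it did not pass between the double mutants (adjusted p = 0.904). XTH33 was at 341, 779 and 311 in ada2aspc, against 458, 651 and 694 in spcing1, overlapping (log2 difference -0.44 ± 0.28, adjusted p = 0.518), and XTH19 had a log2 difference of 0.40 ± 0.14 (adjusted p = 0.216). Among expansins, which loosen walls, 1 of 21 passed: EXLA1, at 2418, 3707 and 1930.0 in ada2aspc, against 3833, 5060.3 and 4914 in spcing1 (log2 difference -0.82 ± 0.16, adjusted p = 0.00567, passed in 3 of 6 refits, adjusted p up to 0.102). The median over expansins was 0.17, and 0.681% of all genes tested were lower. Copies of such families are close in sequence, so the authors' counting could split reads between them.

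Of 30 auxin response genes 2 were higher in ada2aspc (0.215% of all genes tested were) and 1 was lower (0.681%), with a median of 0.14. IAA29, an Aux/IAA repressor of auxin signalling, stood at 1495, 970.5 and 1252 in ada2aspc, against 728, 556 and 481 in spcing1 (log2 difference 1.07 ± 0.23, adjusted p = 0.0135). GH3.3, which joins auxin to amino acids, stood at 604, 701 and 698 in ada2aspc, against 474, 342 and 330.2 in spcing1 (log2 difference 0.82 ± 0.19, adjusted p = 0.0236). Every ada2aspc library was above every spcing1 library for both genes. IAA3, another Aux/IAA repressor, stood at 1169, 1494 and 1027 in ada2aspc, against 1426, 1986 and 1692 in spcing1 (log2 difference -0.47 ± 0.11, adjusted p = 0.0291), and ada2aspc replicate 2 was above spcing1 replicate 1. The 3 calls passed in 2, 1 and 2 of 6 refits, with adjusted p up to 0.124, 0.164 and 0.277. IAA5 had a log2 difference of 1.40 ± 0.38 (adjusted p = 0.0726) and LBD29, a factor of lateral root formation, of 0.80 ± 0.48 (adjusted p = 0.496). The difference of the differences passed for IAA29 (1.47, adjusted p = 0.0101) and GH3.3 (1.17, adjusted p = 0.0135). None of 21 genes of auxin synthesis and transport passed, where 0.896% of all genes tested did.

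Among 20 brassinosteroid genes and 13 strigolactone and karrikin genes 0 passed, where 0.896% of all genes tested did. Among 23 abscisic acid and drought genes 2 were lower in ada2aspc (0.681% of all genes tested were) and 0 were higher. CYP707A3, which breaks down abscisic acid, stood at 209, 444 and 227 in ada2aspc, against 689, 509.9 and 794 in spcing1 (log2 difference -1.24 ± 0.24, adjusted p = 0.00482), and RAB18, a dehydrin that abscisic acid induces, at 2179.6, 2484 and 2842 in ada2aspc, against 3515, 5294 and 5503 in spcing1 (log2 difference -0.91 ± 0.20, adjusted p = 0.016). Neither had overlapping groups. They passed in 4 and 3 of 6 refits, with adjusted p up to 0.0759 and 0.145. RD29B had a log2 difference of -0.80 ± 0.45 (adjusted p = 0.462) and XERO1 of -0.71 ± 0.83 (adjusted p = 0.772).

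Among 22 cytokinin genes 2 were lower, against 0.681% of all genes tested: LOG1, an activating enzyme, at 1430.4, 1397 and 1312 in ada2aspc, against 1889.8, 1818 and 1979.7 in spcing1 (log2 difference -0.46 ± 0.11, adjusted p = 0.0355), and CRF2, a cytokinin response factor, at 487, 570.2 and 449 in ada2aspc, against 616, 844 and 816 in spcing1 (log2 difference -0.59 ± 0.15, adjusted p = 0.0451). Both showed separate groups, but LOG1 passed in 0 of 6 refits and CRF2 in 2, with adjusted p up to 0.17 and 0.272. ARR15 and CKX5 had log2 differences of 0.83 ± 0.65 (adjusted p = 0.634) and 0.60 ± 0.28 (adjusted p = 0.37). ACS6 was the only one of 24 ethylene genes that passed, where 0.896% of all genes tested did. It stood at 454, 807 and 449.7 in ada2aspc, against 902, 1069 and 1056 in spcing1 (log2 difference -0.87 ± 0.20, adjusted p = 0.0243, passed in 2 of 6 refits, adjusted p up to 0.179). ACS11 had a log2 difference of -0.45 ± 0.17 (adjusted p = 0.236) and ERF1 of 0.49 ± 0.45 (adjusted p = 0.695). In ada2a, ACS6 was 4285 ± 314, against 1121 ± 148 in ing1, so the difference between the single mutants had the opposite sign. GASA6, a gibberellin-regulated peptide, was lower in ada2aspc (log2 difference -0.58 ± 0.13, adjusted p = 0.0209) and was the only one of 21 gibberellin genes that passed. OPR3, of jasmonate synthesis, was higher (log2 difference 0.38 ± 0.10, adjusted p = 0.0469), the only one of 22 jasmonate genes, and so was CYP83B1, of indole glucosinolate synthesis (log2 difference 0.42 ± 0.10, adjusted p = 0.0341), the only one of 23 glucosinolate and camalexin genes. These 3 passed in 4, 1 and 1 of 6 refits, with adjusted p up to 0.243, 0.251 and 0.185. Beside these list counts, 0.681% of all genes tested were lower and 0.215% were higher.

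The circadian clock times gene activity over the day. Of its 20 genes, 2 were lower in ada2aspc (0.681% of all genes tested were) and 0 were higher (0.215%). Their median was -0.18. For 12 of the 20, all ada2aspc libraries were below all spcing1 libraries, against 8.41% of all genes tested. LNK1, a coactivator of clock genes (AT5G64170), stood at 811, 700.3 and 693 in ada2aspc, against 1071, 1164 and 919 in spcing1 (log2 difference -0.51 ± 0.11, adjusted p = 0.0142). PRR5, a repressor of the morning genes, stood at 1777, 1865 and 2022 in ada2aspc, against 2296, 2678 and 2391 in spcing1 (log2 difference -0.38 ± 0.09, adjusted p = 0.0345). Between ada2a and ing1 the differences were 0.59 ± 0.11 and 0.48 ± 0.09, and the difference of the differences was -1.10 (adjusted p = 7.62e-05) and -0.86 (adjusted p = 0.000151). PRR9 was at 41.9, 52.3 and 44.9 in ada2aspc, against 55.8, 71.1 and 62.2 in spcing1 (log2 difference -0.43 ± 0.27, adjusted p = 0.512), and LHY at 40, 25.6 and 67.4 in ada2aspc, against 17.9, 41.7 and 28.5 in spcing1, overlapping (log2 difference 0.55 ± 0.51, adjusted p = 0.7). LNK1 passed in 4 of 6 refits and PRR5 in 1, with adjusted p up to 0.159 and 0.253. BBX18, a B-box protein of light signalling, stood at 47.0, 18.7 and 32.2 in ada2aspc, against 78.4, 86.0 and 57.1 in spcing1 (log2 difference -1.23 ± 0.29, adjusted p = 0.0325, passed in 2 of 6 refits, adjusted p up to 0.212), and at 131 ± 24 in ada2a and 54.0 ± 18.9 in ing1.

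Of 17 genes of the GRF and GIF growth list, 2 were lower in ada2aspc (0.681% of all genes tested were) and 0 were higher. GRF9, a growth-regulating factor, stood at 26.3, 22.7 and 37.0 in ada2aspc, against 71.7, 62.5 and 82.5 in spcing1, without overlap (log2 difference -1.32 ± 0.28, adjusted p = 0.0148). TCP10, a factor that limits leaf cell division, stood at 688, 994 and 799.6 in ada2aspc, against 1057, 1306 and 1179.9 in spcing1, also without overlap (log2 difference -0.52 ± 0.11, adjusted p = 0.0121). Both passed in 3 of 6 refits, with adjusted p up to 0.0889 and 0.148. GRF5, which promotes leaf growth, was at 71.3, 36.4 and 88.5 in ada2aspc, against 105, 129 and 103 in spcing1 (log2 difference -0.86 ± 0.25, adjusted p = 0.0953), and the low-level GRF6 had a log2 difference of -0.52 ± 0.74 (adjusted p = 0.821). Of the 26 genes of GCN5 complexes and other histone acetyltransferases, ADA2A and ING1 alone passed, where 0.896% of all genes tested did. The subunit gene TAF9 was at 267, 336 and 311 in ada2aspc, against 215, 237 and 195 in spcing1 (log2 difference 0.50 ± 0.15, adjusted p = 0.118) and HAF2, an acetyltransferase of the TFIID complex, had a log2 difference of -0.84 ± 0.67 (adjusted p = 0.64).

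Several of the higher genes lay side by side in the genome. On chromosome 2, 8 of 9 adjacent tested genes from AT2G17970 to AT2G18040 (TAIR10.1 chr2:7818818-7843942, 25.1 kb) were higher, and the ninth, TAF14, had a log2 difference of 1.05 ± 0.27 (adjusted p = 0.0584). The run holds 8 of the 47 higher genes and 6 of the 14 that were at least 2-fold higher. It was chosen after the values were seen. Its log2 differences lay between 0.98 and 1.85 with a median of 1.02. None of the 6 tested genes on either side passed. No other run of adjacent passing genes in 1 direction was longer than 2.

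ATSLY1, a Sec1/Munc18-like protein of vesicle fusion, stood at 4958, 4847 and 5170.2 in ada2aspc, against 2402, 2356 and 2213 in spcing1 (log2 difference 1.1 ± 0.06, adjusted p = 3.96e-13). EMB2296, of the ribosomal protein L2 family, stood at 25327, 25832 and 28339.8 in ada2aspc, against 12359, 13009 and 13195 in spcing1 (log2 difference 1.04 ± 0.06, adjusted p = 8.45e-13). PIN1AT, a peptidyl-prolyl isomerase, stood at 5727, 6194 and 6562 in ada2aspc, against 2913, 3084 and 3139 in spcing1 (log2 difference 1.01 ± 0.06, adjusted p = 1.33e-12). For each of these genes the replicates lay close together and the groups far apart. MSRA5, a methionine sulfoxide reductase, stood at 995, 897 and 989 in ada2aspc, against 533, 458 and 430.0 in spcing1 (log2 difference 1.02 ± 0.10, adjusted p = 1.2e-07). AT2G17990, annotated as a polyamine-modulated factor 1-binding protein, stood at 5136, 5103 and 5305 in ada2aspc, against 2523, 2680.1 and 2698 in spcing1 (log2 difference 0.98 ± 0.07, adjusted p = 2.73e-11). AT2G18010, a SAUR-like auxin-responsive gene, stood at 228, 197 and 214 in ada2aspc, against 101, 62.7 and 30.7 in spcing1 (log2 difference 1.85 ± 0.35, adjusted p = 0.00424) and had the largest difference in the run. For these 6 genes all ada2aspc libraries lay above all 27 other libraries of the series, which held for 100 of the 21868 genes tested. AT2G17970, a 2-oxoglutarate oxygenase gene, and AT2G17975, a zinc finger gene, were higher than in spcing1 (0.99 and 1.0) but near Col-0: AT2G17970 was 710.3 ± 38.8 in ada2aspc and 600.3 ± 39.1 in Col-0, and AT2G17975 was 326 ± 62.4 in ada2aspc and 325 ± 47.9 in Col-0.

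The run's differences were smaller between the single mutants. In ada2a, AT2G17970, AT2G17975, TAF14, AT2G18010 and MSRA5 were within their spread of Col-0. ATSLY1, AT2G17990, EMB2296 and PIN1AT stood above it. Between ada2a and ing1, ATSLY1, AT2G17990, EMB2296 and PIN1AT passed, with log2 differences of 0.32, 0.40, 0.26 and 0.32, and MSRA5 had 0.37 (adjusted p = 0.0528). The difference of the differences passed for ATSLY1 (0.78), AT2G17990 (0.57), EMB2296 (0.78), MSRA5 (0.65), PIN1AT (0.70), AT2G17970 (0.64) and AT2G18010 (1.92). Leaving out any library left 7 to 9 of the 9 genes higher in ada2aspc, and 6 were higher with only the compared groups in the fit. Without the whole run, 188 genes passed in the comparison of the double mutants. The cause was not tested.

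**Figure D3:**
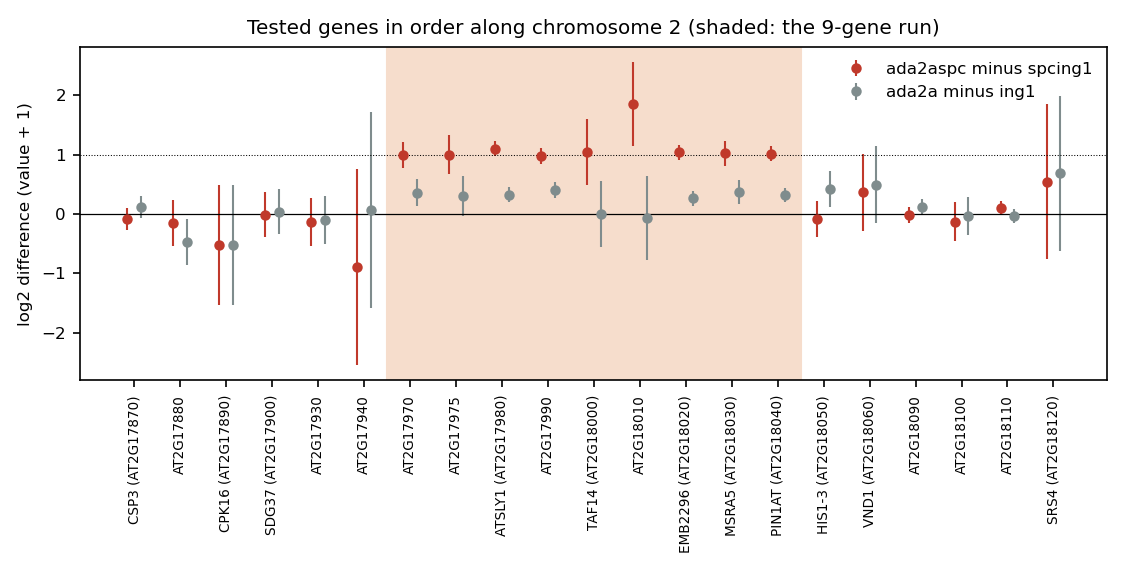
Log2 differences with 95% intervals for ada2aspc minus spcing1 (red) and ada2a minus ing1 (grey) of 21 tested genes in their order along chromosome 2. The shaded 9 genes lie between 0.98 and 1.85 in the double mutants and between -0.06 and 0.40 in the single mutants; in the double mutants the 6 genes on either side lie between -0.90 and 0.55.

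Beside the mutated genes, the largest differences included loci whose signal changed between presence and near absence, most of them without a symbol and named after their values were seen. AT2G01422, annotated as other RNA, stood at 4.84, 15.8 and 4.85 in ada2aspc, against 188, 893 and 1289 in spcing1. It was 1995 ± 315 in spc, 44.2 ± 38.1 in ada2a, 14.2 ± 3.97 in ing1 and 198 ± 116 in Col-0, so it was high in spc, near the wild type or above it in spcing1 and below the wild type in ada2aspc, ada2a and ing1. AT4G29200, annotated as related to beta-galactosidase, stood at 1.95, 0 and 4.42 in ada2aspc, against 73.5, 176 and 189 in spcing1. It was also low in Col-0 (1.42 ± 2.44), ada2a (4.91 ± 0.95) and spc (2.81 ± 3.07), and was 15.5 ± 15.6 in ing1. Thus spcing1, and not ada2aspc, stood apart from the wild type. AT3G44006, an uncharacterized gene, stood at 0.98, 0 and 0 in ada2aspc, against 70.7, 34.3 and 44.9 in spcing1, and at 29.6 ± 15.7 in ada2a and 47.4 ± 33.0 in ing1. It was 0.73 ± 1.26 in spc and had no signal in Col-0. All 3 passed (adjusted p = 3.6e-05, 0.000379 and 0.00099) and did so in all 6 refits, and their log2 differences are not given because they depend on the pseudocount at such low values.

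AT1G33760, an AP2/ERF-type gene annotated as an integrase-type DNA-binding protein, stood at 40.7, 161 and 62.8 in ada2aspc, against 324, 502 and 597 in spcing1 (log2 difference -2.61 ± 0.42, adjusted p = 0.00099), and at 486 ± 83.0 in ada2a and 199 ± 8.66 in ing1. AT3G49160, of the pyruvate kinase family, stood at 31.2, 48.4 and 11.8 in ada2aspc, against 144, 112 and 105 in spcing1 (log2 difference -2.14 ± 0.44, adjusted p = 0.0115), and AT4G02170, annotated as a cotton fiber protein, stood at 13.5, 70.2 and 18.8 in ada2aspc, against 85.6, 134 and 165 in spcing1 (log2 difference -2.19 ± 0.51, adjusted p = 0.0265). None of these 3 had overlapping groups, and ada2aspc replicate 2 was the highest of its group in each. AT1G33760 passed in 6 of 6 refits, AT3G49160 in 4 and AT4G02170 in 2, with adjusted p up to 0.137 and 0.208 for the last 2. AT1G67105, annotated as other RNA, stood at 2837, 2255 and 2818 in ada2aspc, against 7034, 6312 and 4521 in spcing1, with groups apart (log2 difference -1.16 ± 0.11, adjusted p = 5.83e-08, passed in 6 of 6 refits), and was at 2593 ± 107 in ada2a and 2385 ± 128 in ing1.

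On the higher side, the neighbours AT2G40955 and AT2G40960 on chromosome 2 (chr2:17092669-17097454) were both higher in ada2aspc. AT2G40960, an R3H nucleic acid-binding gene, stood at 240.4, 149.9 and 93.5 in ada2aspc, against 41.3, 18.8 and 40.7 in spcing1 (log2 difference 2.21 ± 0.29, adjusted p = 3.51e-05, passed in 6 of 6 refits), and at 27.5 ± 5.78 in spc and 349 ± 48.0 in Col-0. AT2G40955, uncharacterized, stood at 71.2, 83.9 and 75.5 in ada2aspc, against 9.25, 6.04 and 11.2 in spcing1. Every ada2aspc library was far above every spcing1 library, but its adjusted p was 0.0472 and it passed in 0 of 6 refits (adjusted p up to 0.233). PXMT1, a methyltransferase, stood at 39.1, 30.6 and 34.8 in ada2aspc, against 6.03, 13.0 and 11.2 in spcing1, with no overlap (log2 difference 1.75 ± 0.40, adjusted p = 0.0236, passed in 2 of 6 refits, adjusted p up to 0.124).

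**Figure D4:**
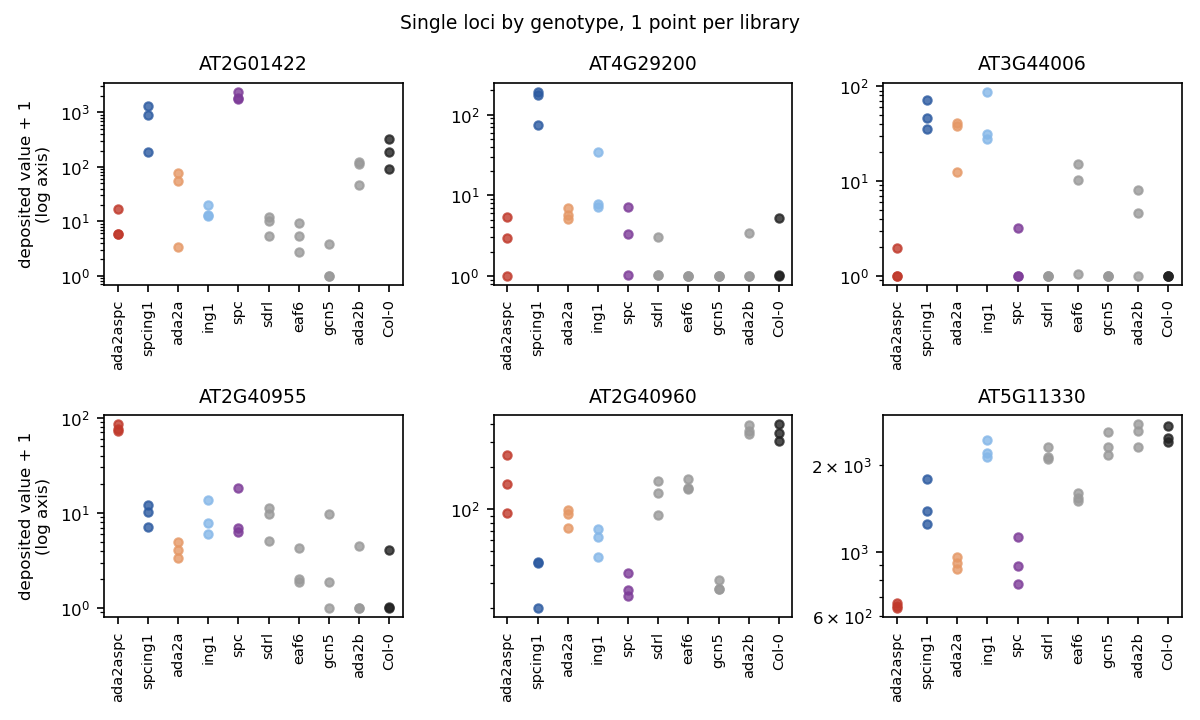
Deposited values + 1 (log axis) of 6 loci in each library of the 10 genotypes. AT2G01422, AT4G29200 and AT3G44006 are near 0 in ada2aspc and higher in every spcing1 library. AT2G40955 and AT2G40960 are higher in ada2aspc than in spcing1, and AT2G40960 is higher still in Col-0 and ada2b. AT5G11330 is lowest in ada2aspc among the 10 genotypes.

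Many gene groups held no gene that passed: in 21 of the 38 lists 0 members did. Of all genes tested 0.896% passed, and at such a share most short lists would hold 0. Among them were photosynthesis (30 genes, median -0.02, with the 95% interval within 1 of 0 for 29), ribosomal proteins (18 genes, median 0.04, 18 within 1), the cell cycle (27 genes, median 0.01, 26 within 1), hypoxia (14 genes, median 0.20, 14 within 1), phosphate starvation (21 genes, median 0.14, 14 within 1), iron (22 genes, median 0.16, 15 within 1) and root hairs (18 genes, median 0.18, 15 within 1). The ribosomal protein list did not hold EMB2296 of the chromosome 2 run, which passed. Summed photosynthesis levels were 3258937 to 3343671 in ada2aspc and 3104153 to 3503214 in spcing1. A gene that did not pass is not shown to be equal: for lists with low-level members, such as seed and pollen markers (8 of 20 tested, 1 within 1), the intervals were wide.

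**Figure D5:**
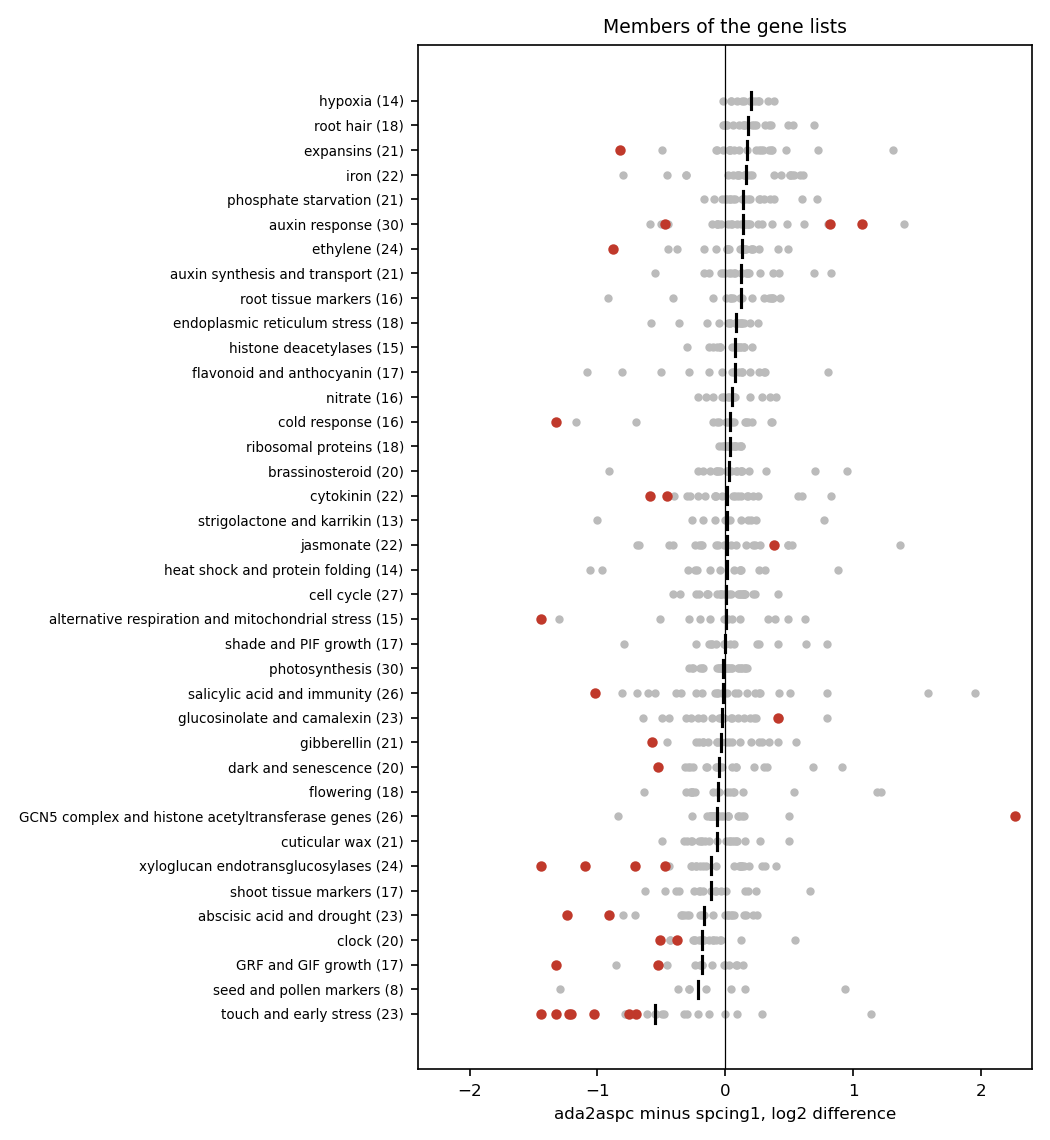
Log2 difference of ada2aspc minus spcing1 for the tested members of 38 gene lists (number tested in brackets), ordered by median (bar). Red points passed at an adjusted p below 0.05; ADA2A, at -6.37, falls outside the axis, and the touch and early stress list at the bottom has the lowest median, -0.55.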

How the data were processed

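RNA-seq of whole seedlings gave 1 deposited table of 32548 loci by 30 libraries (10 genotypes, 3 each). Values are a normalised signal per gene: they are not whole numbers, and the step by which the authors normalised them is not known here. The submitters' processing notes name bcl2fastq, HISAT2, edgeR and TAIR10; versions are not given in the sources used here. Loci were matched to RefSeq's TAIR10.1 annotation, where all 32548 were found and 10804 had a symbol. Read depth is unknown, so no count test was run and no counting interval is given.

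Genes had to reach 10 in 3 or more libraries, and log2(value + 1) was fitted with limma 3.58.1 in R 4.3.3 (a mean per genotype over all 30 libraries, 20 residual degrees of freedom, trended empirical Bayes), with Benjamini-Hochberg adjustment at 0.05. The pseudocount of 1 understates fold changes of low genes. The same fit gave ada2aspc minus spcing1, ada2a minus ing1, and the difference of these differences, and it was tested on simulated data. Alternatives were other scalings, no filter, a pseudocount of 16, a 2-fold threshold, the compared groups alone, a replicate block and leaving out each library.

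Named genes were ADA2A, ING1, up to 12 genes with a symbol in each direction that passed, differed at least 2-fold, averaged at least 30 in the higher group and had groups that did not overlap (7 higher and 19 lower qualified), and for each gene list up to 5 that passed and the 2 largest that did not. Loci without a symbol, the chromosome 2 run, genes that passed in both comparisons and further list members were named after their values were seen. The comparison and the 38 gene lists were chosen with earlier results of these data known. For 36 of 840 list entries the reference gives no gene of that name, and these were left out. 1 further promoter sequence is not reported here.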

Additional observations from a re-analysis of the deposited data

Results flagged for a closer look

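Of the 54 genes named by the rule given with the processing, 27 had a difference between ada2aspc and spcing1 unlike that between ada2a and ing1. They passed a test of the difference itself (limma, adjusted p below 0.05), as 1.94% of all genes tested did. Named genes other than ADA2A and ING1 were chosen by the first of these differences. Their share is therefore not comparable with that of all genes. The values below are the first log2 difference minus the second. Among touch and early stress genes they were -2.86 for STZ, -2.80 for ERF104, -2.65 for SZF1, -1.63 for TCH4, -1.53 for DREB26 and -1.33 for TCH2. Among other genes lower in ada2aspc than in spcing1 they were -2.93 for BAP1, -2.84 for DIC2, -2.81 for ACS6, -2.75 for CYP707A3, -2.53 for BBX18, -2.15 for NEET, -2.02 for PHI-1, -1.92 for WRKY70, -1.30 for XTH23, -1.10 for LNK1, -1.05 for RAB18 and -0.86 for PRR5. They were -1.45 for GRF5 and -1.40 for PRR9, which, like TCH2, did not pass between ada2aspc and spcing1. Among genes higher in ada2aspc they were 1.47 for IAA29, 1.17 for GH3.3 and, in the chromosome 2 run, 0.78 for ATSLY1, 0.78 for EMB2296, 0.70 for PIN1AT and 0.65 for MSRA5. For ADA2A the value was -1.11. ADA2A is near 0 in ada2aspc and ada2a, where the log2 scale depends on the pseudocount. The causes were not tested.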

How the results depend on the processing

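The count of 196 genes that passed between ada2aspc and spcing1 was 34 with only the 6 compared libraries in the fit, 52 with a 2-fold threshold, and 61 to 320 with 1 library left out. The 355 genes of ada2a against ing1 were 539, 79 and 189 to 502 under the same changes. The 425 genes whose differences differed were 146 with the 2-fold threshold and 236 to 584 with 1 library left out. The 7 lower touch and early stress genes were 2 in the fit of the compared groups and 3 to 10 with 1 library left out, and the 14 whose differences differed were 12 to 14. The 25 genes of opposite sign were 10 in the fit of the compared groups and 6 to 31 with 1 library left out. The 8 run genes were 6 in the fit of the compared groups and 7 to 9 with 1 library left out. No named gene that passed changed direction under any setting tried. LBD29, which did not pass, had a log2 difference of -0.0014 without spcing1 replicate 2. Of 34 named genes that passed, 8 did so under all 12 settings tried, and 13, these 8 included, did so under all other than the fit of the compared groups. Same-numbered libraries of ada2aspc and spcing1 did not deviate together (r = 0.038, 0.0036 and -0.019 for numbers 1, 2 and 3). Differently numbered ones gave r from -0.045 to 0.041. Such values show no pairing but cannot exclude a shared growth or preparation. With a replicate block 179, 346 and 385 genes passed in the 3 tests, and 6 touch genes were lower. The unknown depth limits what can be said of genes at low values.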
